A study of Homo sapiens with 12 samples.

Results

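EFR3B and its listed partners EFR3A, TTC7A, TTC7B and PI4KA form the complex that makes phosphatidylinositol 4-phosphate (PI4P) at the plasma membrane. EFR3B was picked because its signal was much higher under JQ1 in MDA-MB-231. The partners were added from knowledge of the complex, with earlier results of these data known. Of the 5 listed genes, 4 were measured, each by 1 transcript cluster, among 14884 genes in all. PI4KA had no cluster with its name in the annotation used and was not analysed here. The study used HCC70 and MDA-MB-231, established human triple-negative breast cancer cell lines. The groups were HCC70 with JQ1, HCC70 with vehicle, MDA-MB-231 with JQ1 and MDA-MB-231 with vehicle, each with 3 Human Gene 2.0 ST arrays. JQ1, which displaces BET bromodomain proteins from acetylated chromatin, was given at 500 nM and the vehicle was DMSO at 0.1%, both for 72 hours. No group carried a transgene or another agent, and each line stands for 1 tumour's cells. Whether the 3 arrays of each group stem from cultures grown separately is not stated, so every error and p-value covers the spread among arrays alone, which may be technical.

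The kinase PI4KA is soluble and has to be brought to the plasma membrane. EFR3 proteins, EFR3A and EFR3B in humans, are anchored there by palmitoylation and recruit TTC7A or TTC7B, scaffolds that hold the kinase together with a hyccin subunit (HYCC1 or HYCC2). TMEM150A, a membrane protein, also binds this assembly. The PI4P made there is the precursor of PIP2, which phospholipase C and the PI 3-kinases use in signalling, and it also drives lipid exchange at contacts with the endoplasmic reticulum. Mutations of TTC7A are known for multiple intestinal atresia with immunodeficiency.

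The 250 bases before the start of EFR3B, TTC7A and TTC7B are shown because these genes lay on opposite sides of their vehicle levels under JQ1. They come from RefSeq (GRCh38.p14) and are written 5′ to 3′ on the strand of the gene, with capitals for matches to the GC box GGGCGG on either strand, where neighbouring matches may overlap. The EFR3B window is chr2:25041826-25042075 on the plus strand, before the first of 2 starts in the table. The TTC7A window is chr2:46915616-46915865 on the plus strand, and the TTC7B window is chr14:90816431-90816680 on the minus strand.
EFR3B: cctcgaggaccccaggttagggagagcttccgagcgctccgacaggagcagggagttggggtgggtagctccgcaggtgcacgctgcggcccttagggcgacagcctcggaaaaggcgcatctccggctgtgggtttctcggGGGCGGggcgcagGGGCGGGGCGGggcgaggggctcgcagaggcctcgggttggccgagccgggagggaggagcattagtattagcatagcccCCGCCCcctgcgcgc
TTC7A: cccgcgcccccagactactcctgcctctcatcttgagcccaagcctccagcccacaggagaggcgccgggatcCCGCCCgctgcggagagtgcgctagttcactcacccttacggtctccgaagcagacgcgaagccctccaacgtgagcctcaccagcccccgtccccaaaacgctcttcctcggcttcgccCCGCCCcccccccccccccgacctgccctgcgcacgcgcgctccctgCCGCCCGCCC
TTC7B: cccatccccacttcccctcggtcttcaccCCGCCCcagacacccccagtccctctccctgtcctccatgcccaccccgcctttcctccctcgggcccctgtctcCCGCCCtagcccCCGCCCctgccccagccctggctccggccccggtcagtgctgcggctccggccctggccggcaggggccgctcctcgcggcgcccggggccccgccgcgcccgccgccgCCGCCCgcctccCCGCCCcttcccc
There were 4 GC box matches in the EFR3B window, 4 in that of TTC7A and 5 in that of TTC7B, and 42.6% of 35116 such windows held at least 1. G and C made up 71.2%, 72.0% and 80.4% of these windows, in the same order, against a median of 58.0% over all windows. The E-box CACGTG, the TATA element TATAAA, the CCAAT box CCAAT and the AP-1 site TGACTCA, read on both strands, had 0 matches in the 3 windows; they were present in 6.34%, 10.7%, 32% and 4.2% of all windows.

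Array medians lay between 6.16 and 6.26 on the log2 scale, at 6.160 to 6.191 on the JQ1 arrays and 6.219 to 6.256 on the vehicle arrays. Every JQ1 array thus had a lower median than every vehicle array. This offset runs along the JQ1 contrast, and median centring removes it. Within groups the pairwise r over all genes was 0.989 to 0.995. Replicate 3 of HCC70 JQ1, MDA-MB-231 JQ1 and MDA-MB-231 vehicle was the array least like the others of its group, by a narrow margin: its mean r with them was 0.9914, 0.9894 and 0.9904 in that order of groups, against 0.9899 to 0.9934 for their other arrays. They are called the 3 least similar arrays below, each judged within its own group and not over all 12 arrays. Values without these 3 arrays are given where a call or a sign changed, or where an untested value moved by at least 1 SD. Smaller shifts are not listed. All 5 mesenchymal markers measured (VIM, ZEB1, AXL, FN1, CD44) were lower in HCC70 vehicle than in MDA-MB-231 vehicle by limma. Of 7 epithelial markers 5 were higher in HCC70, including ESRP1 and GRHL2, while KRT18 was lower and KRT8 did not pass. Of the receptors that triple-negative cells lack, PGR lay below the lower quartile of signals on 12 arrays and ESR1 on 2. Among 6 markers of blood, vessel, fat and muscle cells only CD14 differed between the vehicle-treated lines (8.52 in HCC70 and 5.72 in MDA-MB-231). Of 3 readouts of BET inhibition, BRD2, a BET protein gene, rose by 1.22 ± 0.089 in HCC70 and 0.86 ± 0.089 in MDA-MB-231 (SE), and MYC fell by 0.92 ± 0.10 and 0.41 ± 0.10 in the same order. HEXIM1, a P-TEFb inhibitor gene, rose by 1.11 ± 0.13 in HCC70 and 0.59 ± 0.13 in MDA-MB-231, but its HCC70 value was 0.28 with the mean of its clusters (limma adjusted p = 0.37), and its MDA-MB-231 call ended without the 3 least similar arrays (limma adjusted p = 0.050).

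EFR3B, the membrane anchor for which the set was picked, had one group far above the rest. In HCC70 its log2 signal was 5.77, 5.94 and 5.91 under JQ1, against 5.23, 5.47 and 5.26 in vehicle. In MDA-MB-231 it was 8.70, 8.82 and 8.74 under JQ1, against 5.32, 5.34 and 5.68 in vehicle. The JQ1 arrays lay above the vehicle arrays in both lines, with a gap of 0.299 between the groups in HCC70 and of 3.02 in MDA-MB-231. JQ1 minus vehicle came to 0.55 ± 0.11 in HCC70 (limma SE, n = 3 arrays per group; 1.47-fold) and to 3.31 ± 0.11 in MDA-MB-231 (9.89-fold). That difference ranked 521 from the top of 14884 genes in HCC70 and 2 from the top in MDA-MB-231. The HCC70 effect minus the MDA-MB-231 effect was -2.75 ± 0.16, and -2.89 without the 3 least similar arrays. Outside MDA-MB-231 JQ1 every EFR3B value lay below the array medians (6.16 to 6.26) and above the lower quartiles (4.73 to 4.87). Both changes thus start from a low signal. No test is given for these EFR3B values, since the gene was chosen by them. The arrays measure RNA of whole cultures, so more cells with the RNA and more RNA per cell cannot be told apart.

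EFR3A, the other membrane anchor, differed between the lines more than with JQ1. Its log2 signal in HCC70 was 11.24, 11.18 and 11.18 under JQ1, against 10.97, 10.91 and 10.89 in vehicle. The HCC70 groups did not overlap, and the JQ1 minus vehicle difference was 0.28 ± 0.078 (SE; 1.21-fold), or 0.35 after median centring. In MDA-MB-231 the signal was 9.86, 10.01 and 9.92 under JQ1, against 9.90, 9.96 and 9.81 in vehicle. These groups overlapped, and the difference was 0.04 ± 0.078. The log2 ratio of EFR3B to EFR3A shifted with JQ1 by 0.28 ± 0.11 in HCC70, where the groups overlapped, and by 3.27 ± 0.16 in MDA-MB-231, where they did not (SE over arrays; 9.62-fold in MDA-MB-231).

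TTC7A and TTC7B, the alternative scaffolds between EFR3 and the kinase, lay on opposite sides of vehicle in both lines. TTC7A had a log2 signal of 8.07, 7.90 and 7.99 under JQ1 in HCC70, against 7.72, 7.42 and 7.66 in vehicle. In MDA-MB-231 TTC7A stood at 7.86, 7.89 and 7.74 under JQ1, against 7.60, 7.42 and 7.61 in vehicle. Its JQ1 arrays lay above the vehicle arrays in each line, by 0.39 ± 0.10 between the means in HCC70 and 0.29 ± 0.10 in MDA-MB-231 (SE). Quantile normalization moved the MDA-MB-231 value of TTC7A to 0.44.

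TTC7B had a log2 signal of 5.09, 5.08 and 5.31 under JQ1 in HCC70, against 5.60, 5.49 and 5.58 in vehicle. In MDA-MB-231 TTC7B stood at 6.13, 6.16 and 5.83 under JQ1, against 7.58, 7.42 and 7.37 in vehicle. The JQ1 arrays lay below the vehicle arrays in both lines, and JQ1 minus vehicle was -0.40 ± 0.11 in HCC70 and -1.42 ± 0.11 in MDA-MB-231 (SE), a 1.32-fold and a 2.67-fold lower signal. From the top of the list of falls TTC7B ranked 1616 of 14884 genes in HCC70 and 251 in MDA-MB-231. The effect in HCC70 minus that in MDA-MB-231 was 1.02 ± 0.15, and 0.88 without the 3 least similar arrays. In both HCC70 groups TTC7B lay below the array medians (6.16 to 6.26) and above the lower quartiles (4.73 to 4.87). Whether this low level limited the size of the fall in HCC70 was not tested. The log2 ratio of TTC7B to TTC7A shifted by -0.79 ± 0.11 in HCC70 and by -1.71 ± 0.10 in MDA-MB-231, and the groups did not overlap in either line (SE over arrays).

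In count, 3 of the 4 measured genes had all JQ1 arrays above all vehicle arrays in HCC70 and 1 (TTC7B) had them below; over all genes tested 17.8% lay wholly above and 19.6% wholly below, 37.4% in all. In MDA-MB-231 the counts were 2 above (EFR3B, TTC7A), 1 below (TTC7B) and 1 overlapping (EFR3A), against 16.7% above and 21.3% below, 38.0% in all, over all genes. These contrasts belong to the rule by which the genes were chosen, so nothing is read from the counts.

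**Figure D1:**
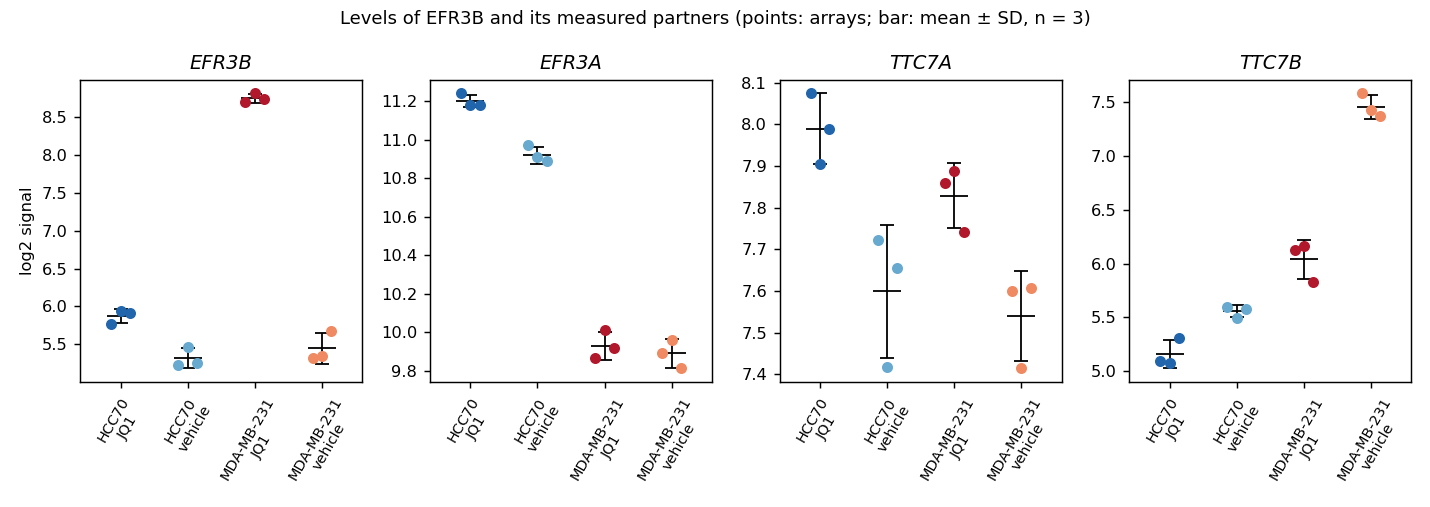
Log2 signal (vertical axis, a separate range in each panel) of EFR3B, EFR3A, TTC7A and TTC7B on the 12 arrays. Points are arrays, and the bar with whiskers is the mean ± SD of 3 arrays. EFR3B stands near 8.75 in MDA-MB-231 JQ1 and at 5.87 or lower on average elsewhere, whereas TTC7B is highest in MDA-MB-231 vehicle, at 7.46.

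Levels of each gene were ordered over the groups. For EFR3B the order from the top was MDA-MB-231 JQ1 (8.75 ± 0.060 SD), HCC70 JQ1 (5.87 ± 0.092), MDA-MB-231 vehicle (5.45 ± 0.20) and HCC70 vehicle (5.32 ± 0.13). Only the lowest pair overlapped, so without JQ1 the lines could not be ranked by EFR3B. For EFR3A the order was HCC70 JQ1 (11.20 ± 0.032), HCC70 vehicle (10.92 ± 0.044), MDA-MB-231 JQ1 (9.93 ± 0.074) and MDA-MB-231 vehicle (9.89 ± 0.073), and the MDA-MB-231 groups overlapped. TTC7A ran from HCC70 JQ1 (7.99 ± 0.085) through MDA-MB-231 JQ1 (7.83 ± 0.077) and HCC70 vehicle (7.60 ± 0.16) to MDA-MB-231 vehicle (7.54 ± 0.11). The vehicle groups of TTC7A overlapped, and its other neighbours were apart by gaps of only 0.017 and 0.019. For TTC7B the order was MDA-MB-231 vehicle (7.46 ± 0.11), then the JQ1 arrays of that line (6.04 ± 0.18), HCC70 vehicle (5.56 ± 0.057) and HCC70 JQ1 (5.16 ± 0.13), with no overlap between neighbours.

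The comparison between the lines was tested for the partners. It is not part of the rule that chose them, although they were chosen with earlier results of these data known. EFR3A was higher in HCC70 than in MDA-MB-231, by 1.03 ± 0.078 in vehicle (2.05-fold, limma adjusted p = 1.6e-07) and by 1.27 ± 0.078 under JQ1 (2.41-fold, limma adjusted p = 2.2e-08). TTC7B was lower in HCC70, with a difference of -1.90 ± 0.11 in vehicle (limma adjusted p = 1.2e-08) and of -0.88 ± 0.11 under JQ1 (limma adjusted p = 1.5e-05). TTC7A did not pass, with 0.06 ± 0.10 in vehicle (limma adjusted p = 0.68) and 0.16 ± 0.10 under JQ1 (limma adjusted p = 0.23). The vehicle value of TTC7A was -0.003 without HCC70 vehicle replicate 1 and -0.004 without MDA-MB-231 vehicle replicate 2. Over all genes 47.0% were called between the vehicle-treated lines (23.8% higher and 23.2% lower in HCC70) and 46.3% between the JQ1-treated lines (24.5% higher and 21.8% lower). The lines' arrays did not overlap for EFR3A and TTC7B in vehicle, as for 55.2% of all genes (28.5% higher and 26.7% lower in HCC70). Under JQ1 they did not overlap for any of the 3 partners, as for 52.2% of all genes (27.7% higher and 24.5% lower). EFR3B itself, given without a test, differed by -0.13 ± 0.11 in vehicle and by -2.88 ± 0.11 under JQ1.

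Further genes of the pathway were taken from 7 lists with 75 genes, of which 34 were measured. JQ1 raised 9 and lowered 8 of them in HCC70, 26.5% and 23.5%, where 9.18% of all genes rose and 12.5% fell, 21.7% in all, by limma at an adjusted p threshold of 0.05. With array weights the HCC70 calls came to 23 of the 34 genes (67.6%), against 5110 of all genes (34.3%). In MDA-MB-231 JQ1 raised 7 and lowered 5, 20.6% and 14.7%, against 10.8% and 17.0% of all genes, 27.8% in all. The shares of all genes in this paragraph include dim genes and were not matched for signal level. A fit limited to genes above the median level tested far fewer genes. It still called more genes in HCC70 than the fit to all genes, and only somewhat fewer in MDA-MB-231. The share called was therefore higher among brighter genes than among all genes in both lines. No excess of the pathway genes is read from the shares of all genes. Whether the pathway shares differ from those of genes with like signal was not tested. The split of all called genes depended on the scale: 57.7% of the HCC70 calls and 61.2% of the MDA-MB-231 calls were falls as deposited, 43.9% and 48.9% after median centring, and 50.4% and 48.6% after quantile normalization. The median log2 change of the 34 genes was 0.14 in HCC70 and 0.003 in MDA-MB-231, and that of all genes 0.006 and 0.017 in the same order. The effects differed between the lines for 8 of the 34 genes, 6 with the higher value in HCC70 (17.6%) and 2 with the higher value in MDA-MB-231 (5.88%), against 9.02% and 5.95% of all genes, 15.0% in all. This count was 5 without any 1 of HCC70 JQ1 replicate 1, HCC70 vehicle replicate 2, HCC70 vehicle replicate 3, MDA-MB-231 JQ1 replicate 2 or MDA-MB-231 vehicle replicate 2.

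Of the other subunits and adaptors of the complex, 3 of 5 listed genes were measured and 0 passed in either line by limma. Of all genes 21.7% passed in HCC70 and 27.8% in MDA-MB-231. TMEM150A, which binds the EFR3 and PI4KA assembly, had a JQ1 minus vehicle difference of 0.27 ± 0.10 in HCC70 (limma adjusted p = 0.088) and 0.08 ± 0.10 in MDA-MB-231 (limma adjusted p = 0.63). Its HCC70 difference passed after median centring (0.34, adjusted p = 0.035), with quantile normalization (0.34, adjusted p = 0.031), with array weights (adjusted p = 0.016), among genes above the median level (adjusted p = 0.035) and without HCC70 vehicle replicate 1 (0.39, adjusted p = 0.012). The relatives TMEM150B and TMEM150C differed by -0.14 ± 0.18 and -0.17 ± 0.17 in HCC70, and by 0.35 ± 0.18 and 0.11 ± 0.17 in MDA-MB-231. HYCC1 and HYCC2 were not analysed here.

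Other kinases that make PI4P moved in part, and not alike in the lines. PI4K2B, a type II kinase of internal membranes, rose by 0.31 ± 0.079 in HCC70 and fell by 0.45 ± 0.079 in MDA-MB-231, and these effects differed by 0.76 ± 0.11 (limma adjusted p = 0.00059). Its levels were 8.968, 8.999 and 8.849 under JQ1 in HCC70, against 8.63, 8.73 and 8.54 in vehicle. Its levels in MDA-MB-231 were 7.96, 7.98 and 7.93 under JQ1, against 8.39, 8.42 and 8.42 in vehicle. The groups were apart in both lines. The HCC70 rise missed the threshold without HCC70 JQ1 replicate 2 (adjusted p = 0.069) or HCC70 vehicle replicate 3 (adjusted p = 0.072). PI4K2A, the other type II kinase, rose by 0.57 ± 0.098 in HCC70 and had a difference of 0.10 ± 0.098 in MDA-MB-231.

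Among proteins that recruit or control PI 4-kinases, GBF1, the Golgi exchange factor for ARF GTPases, rose by 0.48 ± 0.080 in HCC70 and by 0.39 ± 0.080 in MDA-MB-231. NCS1, a calcium sensor that binds a PI 4-kinase of the Golgi, fell by 0.30 ± 0.087 in HCC70 and by 0.46 ± 0.087 in MDA-MB-231. The HCC70 fall of NCS1 missed the threshold after median centring (adjusted p = 0.069), with quantile normalization (adjusted p = 0.060) and without HCC70 JQ1 replicate 1, HCC70 JQ1 replicate 2 or any of the 3 HCC70 vehicle arrays (adjusted p = 0.054 to 0.098). In total 3 of 7 genes of this list rose and 1 fell in HCC70, and 1 rose and 2 fell in MDA-MB-231. Of all genes 9.18% rose and 12.5% fell in HCC70, and 10.8% rose and 17.0% fell in MDA-MB-231, not matched for signal level. With so few genes in the list nothing is read from its counts. Of the PI4P 5-kinases 1 of 7 genes was measured and 0 passed by limma in either line.

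Phosphatases of PI4P and PIP2 changed in both directions: 1 of 8 rose and 3 fell in HCC70, and 2 rose and 2 fell in MDA-MB-231. Of all genes 9.18% rose and 12.5% fell in HCC70, and 10.8% rose and 17.0% fell in MDA-MB-231. Nothing is read from counts over so few genes. SYNJ1, a 5-phosphatase of endocytic vesicles, rose by 0.64 ± 0.099 in HCC70 and 0.38 ± 0.099 in MDA-MB-231, the second of which missed the threshold without MDA-MB-231 JQ1 replicate 2 (adjusted p = 0.052). OCRL, the 5-phosphatase mutated in Lowe syndrome, fell by 0.59 ± 0.11 in HCC70 and 0.34 ± 0.11 in MDA-MB-231. SACM1L, which removes the phosphate of PI4P at the endoplasmic reticulum, fell by 0.46 ± 0.078 in MDA-MB-231 and had a difference of -0.09 ± 0.078 in HCC70. INPP5J, another 5-phosphatase, fell by 0.78 ± 0.17 in HCC70 and had a difference of -0.02 ± 0.17 in MDA-MB-231, and the difference between these effects missed the threshold (limma adjusted p = 0.059). INPP5F, a 4-phosphatase, had a difference of 0.31 ± 0.14 in HCC70 (limma adjusted p = 0.15), where the groups did not overlap, and rose by 0.42 ± 0.14 in MDA-MB-231. The test of the difference between these INPP5F effects gave an adjusted p of 0.78 by limma. The MDA-MB-231 calls of OCRL and INPP5F, at an adjusted p of 0.040 and 0.038, were weak. That of OCRL ended after median centring (adjusted p = 0.085), with quantile normalization (0.11), with the line fitted alone (0.10), and without MDA-MB-231 JQ1 replicate 1 or 3, MDA-MB-231 vehicle replicate 1 or 2, HCC70 JQ1 replicate 2 or any HCC70 vehicle array (0.052 to 0.16). That of INPP5F ended with the line fitted alone (adjusted p = 0.095), without the 3 least similar arrays (0.079), and without MDA-MB-231 JQ1 replicate 1 or 2, MDA-MB-231 vehicle replicate 2 or 3, HCC70 JQ1 replicate 2 or HCC70 vehicle replicate 1 (0.051 to 0.15).

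Among genes of PI synthesis and of lipid transfer at membrane contacts, of 14 measured 5 rose and 3 fell in HCC70, and 4 rose and 1 fell in MDA-MB-231. Of all genes 9.18% rose and 12.5% fell in HCC70, and 10.8% rose and 17.0% fell in MDA-MB-231. Nothing is read from these counts either. PITPNM3, of the Nir family of contact-site proteins, fell by 0.42 ± 0.093 in HCC70 and rose by 1.32 ± 0.093 in MDA-MB-231. Its log2 signal in HCC70 was 6.66, 6.59 and 6.75 under JQ1, against 7.02, 7.05 and 7.19 in vehicle. In MDA-MB-231 PITPNM3 stood at 8.37, 8.14 and 8.09 under JQ1, against 6.83, 6.91 and 6.88 in vehicle. The groups were apart in both lines and in opposite directions, and the effects differed by -1.74 ± 0.13 (HCC70 minus MDA-MB-231, limma adjusted p = 3.8e-06).

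Oxysterol-binding protein relatives, some of which carry PI4P between membranes, did not move together. OSBPL6 rose by 0.45 ± 0.081 in HCC70 and by 1.11 ± 0.081 in MDA-MB-231. OSBPL3 had a difference of -0.09 ± 0.075 in HCC70 and fell by 0.98 ± 0.075 in MDA-MB-231. OSBPL8, which trades PI4P for phosphatidylserine at the plasma membrane, rose by 0.56 ± 0.084 in HCC70 and had a difference of -0.19 ± 0.084 in MDA-MB-231 (limma adjusted p = 0.13, and 0.031 with a variance trend and robust moderation). ESYT1, an extended synaptotagmin that ties the endoplasmic reticulum to the plasma membrane, rose by 0.58 ± 0.094 in HCC70 and by 0.57 ± 0.094 in MDA-MB-231. C2CD2 fell by 0.45 ± 0.11 in HCC70 and had a difference of -0.25 ± 0.11 in MDA-MB-231 (limma adjusted p = 0.12). The phospholipase C list had 0 of 13 genes measured. The PI 3-kinase list had 1 of 12, INPPL1 (SHIP2, a 5-phosphatase of PIP3), which fell by 0.35 ± 0.10 in HCC70 (limma adjusted p = 0.023) and had a difference of -0.21 ± 0.10 in MDA-MB-231 (limma adjusted p = 0.14). The INPPL1 call ended after median centring (adjusted p = 0.061), without the 3 least similar arrays (0.061), and without HCC70 JQ1 replicate 1 or 3 or HCC70 vehicle replicate 2 or 3 (0.058 to 0.11).

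**Figure D2:**
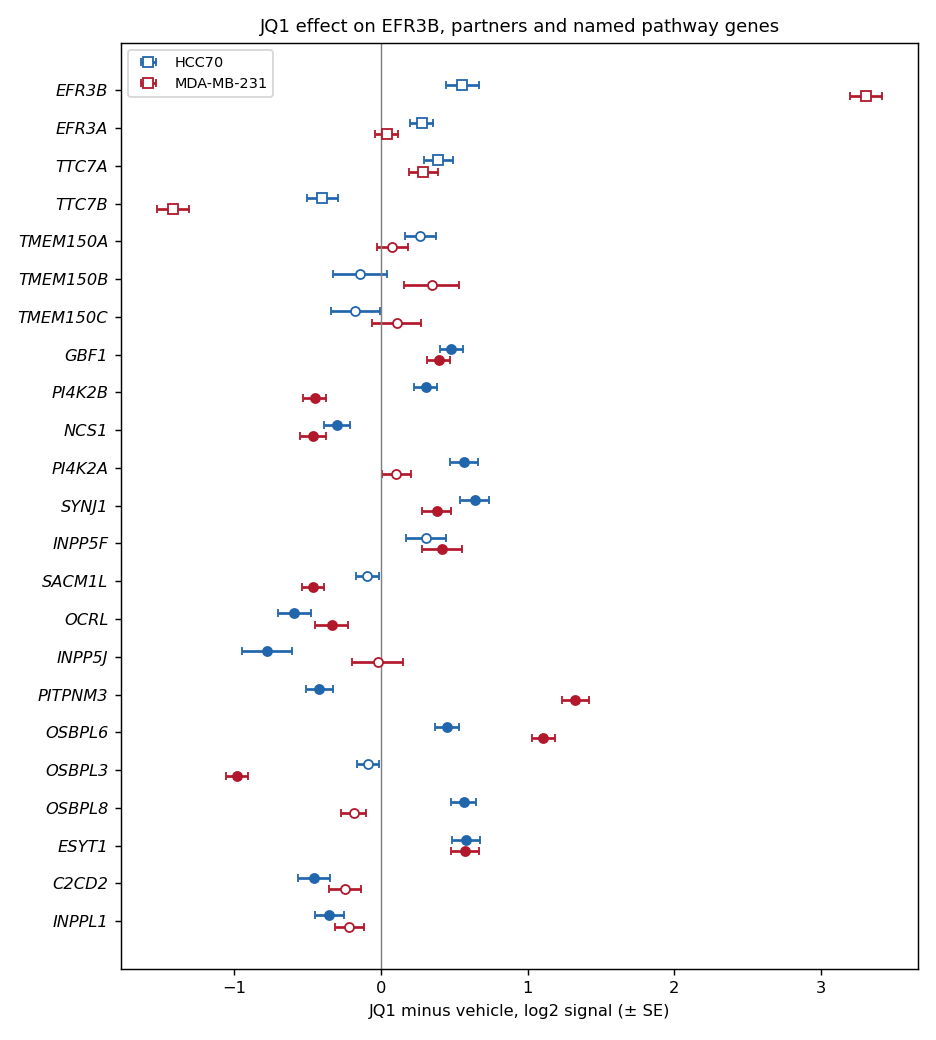
JQ1 minus vehicle on the log2 scale (horizontal axis, whiskers are the limma SE) for EFR3B, its partners and the named genes of the pathway, with HCC70 above MDA-MB-231 in each row. Squares were not tested, filled circles passed the adjusted p threshold of 0.05 and open circles did not. EFR3B stands at 3.31 in MDA-MB-231, and PITPNM3 lies on opposite sides of 0 in the lines.

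Of the measured genes beside EFR3B on chromosome 2, CENPO, ADCY3 and DNMT3A fell in both lines. Over all genes 12.5% fell in HCC70 and 17.0% in MDA-MB-231, and the share falling in both was not counted. An effect on the region was not tested. The 3 measured genes on each side in RefSeq order were CENPO, ADCY3 and DNAJC27-AS1, and POMC, DNMT3A and MIR1301. CENPO, a centromere protein gene, fell by 0.44 ± 0.11 in HCC70 and by 0.71 ± 0.11 in MDA-MB-231. The adenylyl cyclase ADCY3 fell by 0.83 ± 0.12 and 0.88 ± 0.12, and the DNA methyltransferase DNMT3A by 0.71 ± 0.11 and 0.47 ± 0.11, in the same order of lines. POMC, the precursor of pituitary peptide hormones, was below the lower quartile of signals on every array and differed by -0.09 ± 0.13 in HCC70 and 0.03 ± 0.13 in MDA-MB-231. CENPO and ADCY3 overlap in RefSeq, as do DNMT3A and MIR1301, so their signals may not be independent.

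DNAJC27-AS1, the noncoding gene next to EFR3B, had a log2 signal of 4.09, 4.72 and 4.64 under JQ1 in HCC70, against 4.61, 4.41 and 4.64 in vehicle. In MDA-MB-231 it stood at 5.17, 5.23 and 5.01 under JQ1, against 4.89, 4.66 and 4.43 in vehicle. The signal lay below the lower quartile on all 6 HCC70 arrays and on 2 of the 3 MDA-MB-231 vehicle arrays. The HCC70 groups overlapped (difference -0.07 ± 0.16) and the MDA-MB-231 groups did not (0.48 ± 0.16, limma adjusted p = 0.044). That call ended with the replicate number as a block (adjusted p = 0.063), with array weights (0.059), with quantile normalization (0.065), without the 3 least similar arrays (0.14), and without any 1 of the 3 MDA-MB-231 JQ1 arrays, the 3 HCC70 vehicle arrays or MDA-MB-231 vehicle replicates 2 and 3 (0.051 to 0.14). MIR1301 differed by 0.07 ± 0.12 in HCC70 and fell by 0.39 ± 0.12 in MDA-MB-231 (limma adjusted p = 0.031), and its groups overlapped in both lines. The MIR1301 call ended after median centring (adjusted p = 0.065), with quantile normalization (0.18), with the line fitted alone (0.087), and without MDA-MB-231 JQ1 replicate 1 or 2 or MDA-MB-231 vehicle replicate 2 or 3 (0.086 to 0.12).

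**Figure D3:**
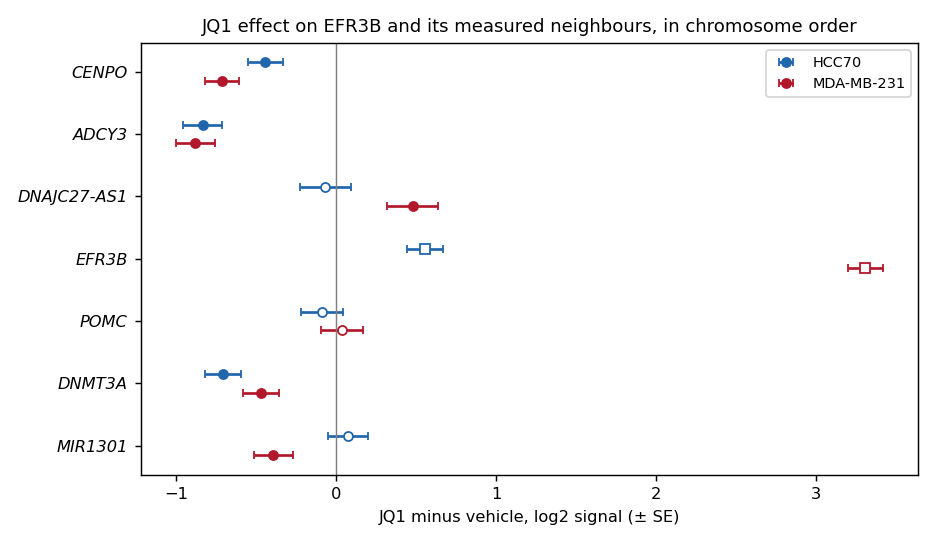
JQ1 minus vehicle on the log2 scale (horizontal axis, whiskers are the limma SE) for EFR3B and the 3 measured genes on each side of it, with HCC70 above MDA-MB-231 in each row. Squares were not tested, filled circles passed and open circles did not. CENPO, ADCY3 and DNMT3A lie below 0 in both lines, and EFR3B above.

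Genes with a pattern like that of EFR3B were sought among 3867 genes whose group means spanned at least 1 on the log2 scale, by Pearson's r over the 12 arrays. The closest were SHROOM3 (r = 0.985), a regulator of the apical actin cytoskeleton, the noncoding LINC02649 (0.984), the helix-loop-helix factor ATOH8 (0.973), SPATA9 (0.971), HCFC1R1 (0.968) and the DNA polymerase POLN (0.966). These values describe the arrays: the 3 MDA-MB-231 JQ1 arrays lay above the other 9 for each of these genes, so the points form separate clusters. ATOH8 stood at 5.45 ± 0.14 under JQ1 and 5.41 ± 0.15 in vehicle in HCC70, and at 8.46 ± 0.30 under JQ1 and 5.65 ± 0.12 in vehicle in MDA-MB-231 (SD, n = 3). The other 5 genes differed in MDA-MB-231 by 1.04 to 1.31 between JQ1 and vehicle, and in HCC70 by 0.07 to 0.21. SPATA9 was below the lower quartile of signals on all 12 arrays.

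**Figure D4:**
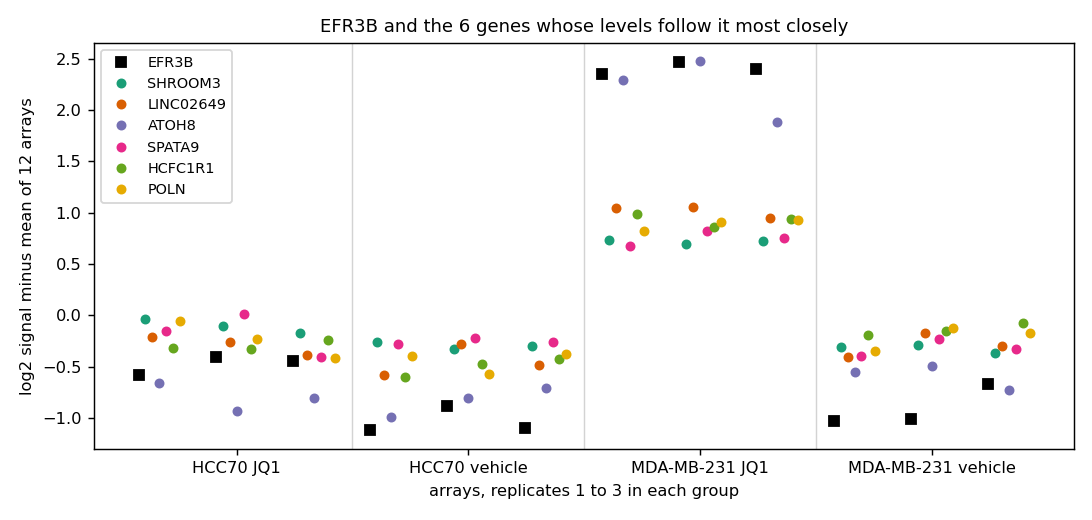
Log2 signal minus the gene's mean over 12 arrays (vertical axis) for EFR3B (black squares) and the 6 genes with the highest r with it (circles), array by array (horizontal axis). The 3 MDA-MB-231 JQ1 arrays lie above the other 9 for every gene drawn, and EFR3B and ATOH8 have the widest steps.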

How the data were processed

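RNA (150 ng per sample) was labelled with biotin and hybridised to 12 arrays. The authors deposited normalized log2 values for 53617 transcript clusters. Per the submitters' processing notes the tools included RMA, oligo and limma; their versions and the genome build are not given in the sources used here. Of the clusters, 16098 had 1 gene symbol, 0 had several and 37519 had none and were not used. For 779 genes with more than 1 cluster the one with the highest mean was kept, which left 14884 genes. Columns of other series numbered 0, and arrays shared at most 0.262% identical values.

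A limma 3.58.1 model with 1 mean per group (lmFit and eBayes in R 4.3.3) took in all 12 arrays. Tests were two-sided with Benjamini-Hochberg adjustment over all genes, with calls made below an adjusted p of 0.05; "rose" and "fell" are used of called genes. Each SE is that of the limma coefficient, and the number of arrays limits the precision. On simulated arrays with 200 of 14884 genes changed in MDA-MB-231, log2 changes of 0.5, 1 and 2 were recovered in 51.5%, 91.3% and 100% of cases, and 5.81% of calls were false. In the real contrast 27.8% of genes were called, and the simulated noise was independent between genes. These rates therefore need not hold for the real arrays. The members and lists were chosen with earlier results of these data known.

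Named beside the members were, from each list, the called genes with the lowest p-values (up to 2 per direction and JQ1 contrast), all measured other subunits, 3 measured neighbours on each side of EFR3B, the 6 genes most like EFR3B, BET readouts and line markers. Replicate numbers were checked as pairs by correlating the deviations of JQ1 and vehicle arrays from their group means over genes. Same-numbered arrays correlated at -0.059, 0.015 and 0.070 in HCC70 and at 0.155, 0.121 and 0.362 in MDA-MB-231, so every same-numbered pair passed 0.1 in MDA-MB-231 only. JQ1 replicate 1 and vehicle replicate 2 of MDA-MB-231 also correlated at 0.121. The reported values use no pairing, and the block is an alternative for both lines. The block gives each replicate number the same effect in both lines, so pairing within MDA-MB-231 alone was not fitted. The alternatives were the replicate block, quantile normalization, median centring, array weights, averaging clusters of 1 gene, brighter genes only, robust moderation with a variance trend, lines fitted singly, and leaving out each array. A fit without replicate 3 of HCC70 JQ1, MDA-MB-231 JQ1 and MDA-MB-231 vehicle was chosen after seeing the data.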

Additional observations from a re-analysis of the deposited data

Results flagged for a closer look

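For 7 named genes of the pathway and for MYC the JQ1 effect differed between HCC70 and MDA-MB-231 by the test of the difference itself (HCC70 minus MDA-MB-231, log2 scale, limma with Benjamini-Hochberg adjustment). The value was -1.74 ± 0.13 for PITPNM3 (adjusted p = 3.8e-06), 0.89 ± 0.11 for OSBPL3 (1.0e-04), 0.76 ± 0.11 for PI4K2B (0.00059), 0.75 ± 0.12 for OSBPL8 (0.00095) and -0.66 ± 0.11 for OSBPL6 (0.0019). PI4K2B and PITPNM3 passed with opposite signs in the lines, and OSBPL6 rose in both.

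Weaker differences were 0.46 ± 0.14 for PI4K2A (adjusted p = 0.042), 0.37 ± 0.11 for SACM1L (0.041) and -0.505 ± 0.14 for MYC (0.030). That of PI4K2A missed the threshold with quantile normalization (adjusted p = 0.052) and without any 1 array other than MDA-MB-231 JQ1 replicate 1 and MDA-MB-231 vehicle replicate 3 (0.055 to 0.097). That of SACM1L missed it with quantile normalization (0.069) and without any 1 array other than HCC70 JQ1 replicate 3 and MDA-MB-231 vehicle replicate 3 (0.054 to 0.095). That of MYC missed it without the 3 least similar arrays (0.078), or without HCC70 JQ1 replicate 3, HCC70 vehicle replicate 2 or 3, MDA-MB-231 JQ1 replicate 1 or MDA-MB-231 vehicle replicate 1 or 2 (0.058 to 0.079). The causes were not tested.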

How the results depend on the processing

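Of 164 recomputed counts of called genes, 158 stayed within 1.5 times the reported count. Of 363 recomputed values of EFR3B and its partners, 355 kept their direction and side of the threshold where tested, or moved by less than 1 SD where not. Many of these values could not move, because the setting leaves a difference of group means as it was. EFR3B in MDA-MB-231 stayed at 3.306 with the replicate block, robust moderation, the line fitted alone or any HCC70 array left out. The tally of 355 therefore overstates how firmly the values hold. Array weights gave 5110 called genes in HCC70 in place of 3229. The count of pathway genes whose effects differed between the lines was 5 to 8 with 1 array left out. Quantile normalization gave a JQ1 minus vehicle difference of 0.44 for TTC7A in MDA-MB-231, and differences between the effects of 0.16 for EFR3A and -0.01964 for TTC7A. Centring arrays on their medians gave 0.35 for EFR3A in HCC70. Without the 3 least similar arrays the difference of the effects was -2.89 for EFR3B and 0.88 for TTC7B. Between the vehicle-treated lines TTC7A ranged from -0.004333 to 0.149 with 1 array left out. Among genes that did not pass, signs turned for TMEM150C in MDA-MB-231 (-0.0325 to 0.294 with 1 array left out), POMC in MDA-MB-231 (-0.003889 with quantile normalization, -0.005 without the 3 arrays, -0.0025 to 0.0945 with 1 left out), POMC in HCC70 (-0.229 to 0.0772 with 1 left out) and DNAJC27-AS1 in HCC70 (0.0962 with array weights, 0.0015 after centring, -0.187 to 0.129 with 1 left out). The causes were not tested. The replicate block, shared by both lines, called 3409 genes in HCC70 and 4376 in MDA-MB-231. It ended the DNAJC27-AS1 call (limma adjusted p = 0.063) and no other reported JQ1 call of a named gene or line call of a partner. The calls of the line markers were not checked under the alternatives. Pairing within MDA-MB-231 alone was not fitted. The arrays give no detection calls, so how far dim genes such as POMC rise above background is unknown.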
